A study of Mus musculus with 16 samples.

Results

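The 10 genes described here mark the stem cells at the base of the small intestinal crypt. They are Lgr5, Olfm4, Ascl2, Smoc2, Axin2, Sox9, Rnf43, Znrf3, Slc12a2 and Tnfrsf19, chosen by symbol from the 48440 genes that each table of normalized counts lists, and all 10 were found. RNA-Seq of polyA RNA was done on cells sorted by GFP from Lgr5eGFP mice, in which GFP is made from the Lgr5 gene, so every group carries this allele and every library was selected through the promoter of 1 of the markers. Cells carrying CD45 or CD31, and dying cells, were removed in the sort. All mice were female and had eaten a high-fat diet during 16 weeks, underwent vertical sleeve gastrectomy (VSG) or sham surgery, and were studied 4 weeks later, 15 minutes after a liquid meal given after an overnight fast. Each library is the GFP+ cells from 6 cm of 1 segment of 1 mouse. The duodenum and the jejunum each have 4 VSG and 2 sham libraries from the same 6 mice, and the ileum has 2 VSG libraries (replicates 4 and 5) and 2 sham libraries. By the codes in their labels, libraries of different segments with the same surgery and replicate number come from 1 mouse.

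Stem cells at the crypt base divide throughout life and renew the whole epithelium. Their state is held by Wnt signaling: Wnt ligands bind Frizzled receptors, beta-catenin enters the nucleus, and TCF factors switch on target genes. R-spondins raise this signal by binding Lgr receptors and clearing the ubiquitin ligases Rnf43 and Znrf3, which otherwise remove Frizzled from the cell surface. Several of the markers are themselves Wnt targets, so the list holds both parts of this pathway and its outputs.

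The receptors and fate factors come first. Lgr5, the R-spondin receptor (ENSMUSG00000020140), lies on the minus strand of chromosome 10 from 115450311 to 115587780. All positions are on GRCm38, in the GENCODE M21 annotation. Ascl2, a transcription factor that maintains the stem cell fate (ENSMUSG00000009248), is on chromosome 7 from 142966829 to 142969264, minus strand. Sox9, a transcription factor of crypt cells and Paneth cells (ENSMUSG00000000567), is on chromosome 11 from 112782224 to 112787760, plus strand. Tnfrsf19, the receptor also called Troy (ENSMUSG00000060548), is on chromosome 14 from 60963875 to 61046490, minus strand. The Wnt antagonists among the markers are Axin2, a scaffold of the complex that degrades beta-catenin and a Wnt target itself (ENSMUSG00000000142, chromosome 11, 108920349 to 108950783, plus strand), and the ligases Rnf43 (ENSMUSG00000034177, chromosome 11, 87662722 to 87735539, plus strand) and Znrf3 (ENSMUSG00000041961, chromosome 11, 5276324 to 5444847, minus strand). Olfm4 encodes a secreted glycoprotein (ENSMUSG00000022026, chromosome 14, 79984081 to 80023139, plus strand), and Smoc2 encodes a secreted calcium-binding protein (ENSMUSG00000023886, chromosome 17, 14279506 to 14404790, plus strand). Slc12a2 encodes a sodium, potassium and chloride cotransporter (ENSMUSG00000024597).

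Start regions of 5 of the 10 markers, at 7 start sites, could be matched by symbol to RefSeq on GRCm38.p6. They are shown because several markers are Wnt targets, and the letters CTTTGA, which TCF factors bind, were searched on both strands in the 250 bases before each start. These letters were found before 1 of the 7 starts, the second start of Tnfrsf19, and before 13.8% of 32851 starts of all genes. In the 4 windows of 120 bases below, written 5′ to 3′ on the strand of the gene, capitals mark these letters (here on the opposite strand, TCAAAG). The windows of Ascl2 (chr7:142969265-142969384), Axin2 (chr11:108920229-108920348) and Olfm4 (chr14:80000182-80000301) end at the base before the start, and the Tnfrsf19 window (chr14:61038118-61038237) has its match 201 bases before the start. No match in these windows says only that these letters are not there. Lgr5, Smoc2, Sox9 and Znrf3 were not matched, and Slc12a2 was left out of the search.
Ascl2: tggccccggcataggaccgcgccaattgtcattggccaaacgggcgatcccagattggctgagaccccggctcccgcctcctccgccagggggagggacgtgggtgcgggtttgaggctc
Axin2: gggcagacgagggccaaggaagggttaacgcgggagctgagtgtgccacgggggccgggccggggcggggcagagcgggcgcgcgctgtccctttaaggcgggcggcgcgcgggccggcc
Olfm4: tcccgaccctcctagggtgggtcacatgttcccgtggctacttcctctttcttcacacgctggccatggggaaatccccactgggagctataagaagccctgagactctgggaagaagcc
Tnfrsf19: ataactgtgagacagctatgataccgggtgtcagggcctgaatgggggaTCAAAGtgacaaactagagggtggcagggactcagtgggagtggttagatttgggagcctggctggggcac
The 250 bases before the start were richest in G and C for Axin2 (69.2%, with 24 CG pairs) and Ascl2 (67.6%, with 19), against medians of 52.4% and 6 over all starts. Those of Olfm4 held 54% G and C and 4 CG pairs.

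The values are counts that the authors normalized with DESeq2 within each segment, so levels are compared within a segment only. Each library stands on an implied 10.9 to 63.6 M reads, and the 2 ileal sham libraries, at 21.5 and 10.9 M, are the shallowest. A value of 0 is given as listed at 0, because 11.6%, 20.2% and 36.1% of genes with a mean above 50 in the duodenum, jejunum and ileum are listed at 0 in at least 1 library. Of the cells removed in the sort, Ptprc, which encodes CD45, had 0 to 1534 normalized counts and Pecam1, which encodes CD31, 0 to 196, while the epithelial gene Epcam had 29550 to 68770. In duodenal VSG replicate 3, at 1534, Ptprc stood above Ascl2, Znrf3 and Tnfrsf19. In these bulk samples, fewer cells of a type and less RNA per cell cannot be told apart.

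Several libraries stood apart before any comparison. In the jejunum, sham replicate 1 was the lowest of the 6 libraries for 9 of the 10 markers, against 29.1% of all genes with a mean above 50, and the median marker lay 2.17 below the median library on the log2 scale. Lgr5, Znrf3 and Tnfrsf19 were listed at 0 there. The same library was the highest for 10 of 10 enterocyte genes, with a summed level of 2437880 normalized counts against 581861 to 1051930 in the other jejunal libraries. It was the lowest for 8 of 8 Paneth cell genes, 7 of 7 goblet cell genes and 10 of 12 proliferation genes. The part of these other cell types in the marker values was not tested. In the duodenum, VSG replicate 1 was the highest of the 6 libraries for 10 of 10 markers, against 24.7% of all genes, with the median marker 0.70 above the median library on the log2 scale, and it was the lowest for 7 of 10 enterocyte genes (summed level 374949, against 531733 to 1227560 in the others). Duodenal sham replicate 2 was the lowest of its segment for 7 of 8 Paneth cell and 5 of 7 goblet cell genes, but for only 2 of the 10 markers, and its stromal and endothelial genes summed to 2595 normalized counts, against 41.6 to 306 in the others. Jejunal VSG replicate 1 went against its label in another way. Fabp6, the bile acid binding protein of the ileum, had 196951 normalized counts there, while the remaining jejunal libraries had 15.8 to 313 and the ileal ones 29162 to 208801. Results that rest on these libraries are given with and without them.

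**Figure D1:**
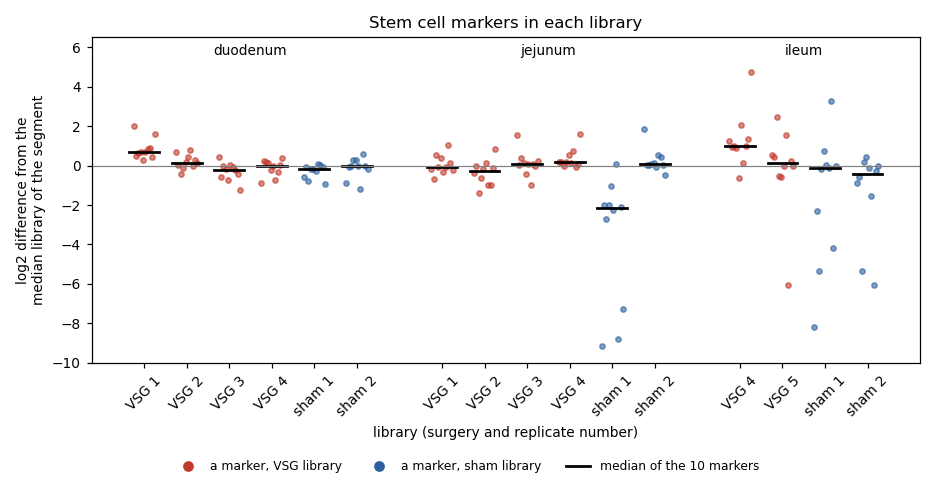
Each point is 1 of the 10 markers in 1 library, as its log2 difference (normalized count + 1) from the median library of its segment, and black lines are the median of the 10 markers. Duodenal VSG replicate 1 lies above its segment (median 0.70) and jejunal sham replicate 1 below (median -2.17), with 3 markers listed at 0 at the bottom.

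The markers spanned a wide range of levels. Per kilobase of the longest coding transcript, the median over duodenal libraries was highest for Olfm4 at 20088 normalized counts per kb (range 13422 to 28496), followed by Slc12a2 at 4830 (3553 to 6527), Smoc2 at 2812 and Axin2 at 1718. Rnf43 (1126) and Sox9 (1069.9) followed, then Ascl2 (501), Lgr5 (345, range 188 to 1393), Znrf3 (123) and Tnfrsf19 (99.997). Olfm4 lay above Slc12a2 in 6 of 6 libraries without overlap, while 6 of the 9 neighbouring pairs in this order had overlapping ranges. Rnf43 lay above Sox9 in 3 of 6 libraries and Ascl2 above Lgr5 in 4 of 6. In the jejunum the order was the same except that Sox9 (601 per kb) and Rnf43 (538) changed places, with 8 of 9 neighbouring pairs overlapping. Olfm4 was again first, with a median of 10531 per kb, and above Slc12a2 (2193) in every jejunal library. In the ileum Olfm4 had the highest median (1428 per kb), Axin2 was next (496) and Slc12a2 after it (463), and all 9 neighbouring pairs overlapped.

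**Figure D2:**
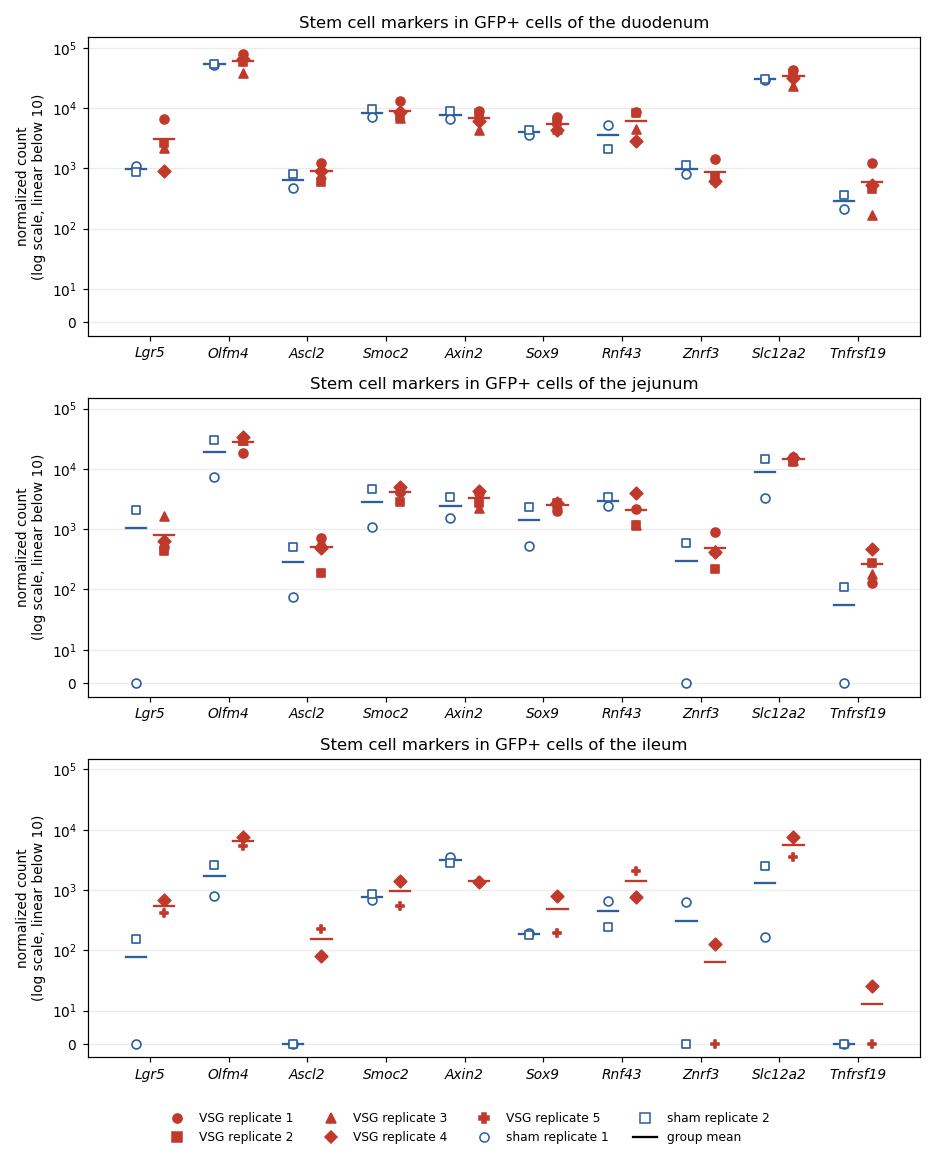
Normalized counts of the 10 markers in each library of the duodenum (top), jejunum (middle) and ileum (bottom), on a log axis that is linear below 10. Filled red symbols are VSG and open blue symbols sham libraries, lines are group means, and the jejunal sham libraries lie far apart for most markers, with Lgr5 at 0 and 2053.

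VSG was compared with sham in each segment by limma on log2(normalized count + 1), over all genes with a mean above 10, and a gene was called at the study's own thresholds (p under 0.05, adjusted p under 0.2, absolute log2 fold change above 0.5, mean above 50). The study applied these thresholds to DESeq2 tests, which gave far more altered genes in each segment. Calls here are therefore those of limma and not the study's. Among duodenal genes 0 of the 10 markers were called, where 0.0237% of 16867 genes were. Their unadjusted limma p was under 0.05 for 0 of 10 as well, against 6.27% of all genes (2.79% higher and 3.48% lower after VSG). By direction, 8 of the 10 had a positive log2 fold change, against 50.7% of all genes, and the median was 0.28 on the log2 scale, against 0.01 over all genes. Without VSG replicate 1, 6 of 10 were positive with a median of 0.15, and without sham replicate 1, 7 of 10 with a median of 0.10. Without VSG replicate 3 it was 9 of 10 with a median of 0.42, and without sham replicate 2 it was 10 of 10 with a median of 0.23. Leaving out VSG replicate 4 put 2 markers, Lgr5 and Rnf43, under the unadjusted level, and 0 called.

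Lgr5 had the largest duodenal difference. VSG replicates 1 to 4 had 6565, 2638, 2169 and 892 normalized counts of it, and the sham replicates had 1082 and 884. The first 3 VSG values exceeded both sham values, and replicate 4 fell between them. The VSG mean was 3066 ± 2447 (SD, n = 4) and the sham mean 983 ± 140.2 (SD, n = 2), which gives a log2 fold change of 1.30 (95% confidence interval -0.14 to 2.74, limma adjusted p = 0.835). The exact two-sided permutation p over the 15 splits was 0.267, where 0.0667 is the smallest possible. Without VSG replicate 1 the log2 fold change of Lgr5 was 0.81.

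The other fate factors showed smaller differences with overlapping groups. Ascl2 had 1251, 598, 805 and 897 normalized counts in VSG replicates 1 to 4, and the sham libraries had 466 and 804 (log2 fold change 0.49, 95% confidence interval -0.56 to 1.53). Its fold change was 0.09 without sham replicate 1 and 0.88 without sham replicate 2. Sox9 had 7219, 5871, 4451 and 4339 after VSG, and 3592 and 4397 after sham surgery. For Sox9 only VSG replicate 4 lay below a sham library, and the log2 fold change was 0.43 (-0.19 to 1.04). Tnfrsf19 had 1219, 448, 169 and 524 after VSG, and 209 and 362 after sham surgery, with a log2 fold change of 0.77 (-1.04 to 2.57). With VSG replicate 1 left out, the fold changes were 0.30 for Ascl2, 0.28 for Sox9 and 0.31 for Tnfrsf19.

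The feedback antagonists of the Wnt pathway were divided in direction in the duodenum. Rnf43 had 8570, 8367, 4534 and 2883 after VSG, and 5171 and 2098 after sham surgery. Its log2 fold change was 0.75 (-0.37 to 1.87), and 1.40 without sham replicate 1 but 0.10 without sham replicate 2. Axin2 had 8856, 8152, 4357 and 6153 after VSG and 6481 and 8795 after sham surgery, with a log2 fold change of -0.19 (-0.89 to 0.51). Znrf3 had 1448 in VSG replicate 1 and 623 to 753 in the other VSG libraries, which lay below both sham libraries at 805 and 1156, and its log2 fold change was -0.23 (-1.27 to 0.81).

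The 3 most abundant markers differed little between the duodenal groups. Olfm4 had 37596 to 79817 normalized counts after VSG and 52605 and 54348 after sham surgery. Its log2 fold change was 0.12, with a 95% confidence interval of -0.57 to 0.81. Slc12a2 had 23166 to 42553 after VSG and 29785 and 30833 after sham surgery (log2 fold change 0.13, -0.48 to 0.74). Smoc2 had 6953 to 12939 and 7045 and 9698 (0.07, -0.59 to 0.73). For these genes VSG replicate 1 was the highest library and VSG replicate 3 the lowest, with both sham libraries between them. In the duodenum no marker had its VSG libraries all above or all below the sham libraries, which held for 6.44% and 8.01% of all genes.

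**Figure D3:**
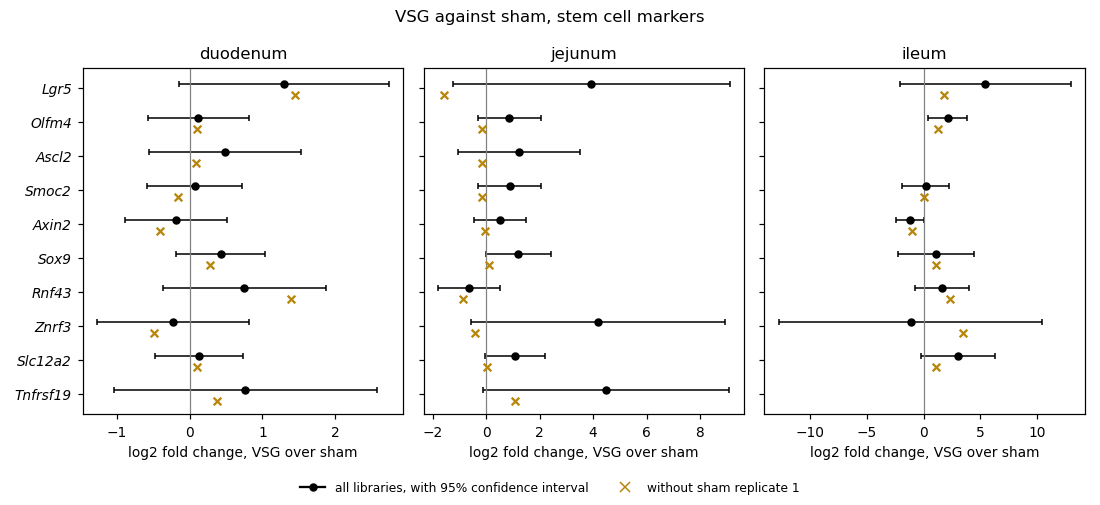
Log2 fold changes, VSG over sham, of each marker on log2(normalized count + 1) in the 3 segments, with 95% confidence intervals from limma (black) and the value without sham replicate 1 (gold crosses), and a different horizontal scale in each panel. All intervals in the duodenum and jejunum include 0, and the jejunal crosses lie near or below 0, except that of Tnfrsf19 at 1.06. Ascl2 and Tnfrsf19 in the ileum are not drawn because both sham libraries are listed at 0.

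In the jejunum 9 of 10 markers had a positive log2 fold change, against 55% of all genes, with a median of 1.12 against 0.11 over all genes. The limma test called 0 of the 10 (0.0126% of 15857 genes were called), and the unadjusted p was under 0.05 for 0 of 10 markers and for 6.04% of all genes (3.63% higher and 2.4% lower after VSG). This difference lay in sham replicate 1. Without it, 3 of 10 markers were positive, the median was -0.16 and 0 were called. With it as the lone sham library, that is without sham replicate 2, 7 of 10 were called, namely Lgr5, Olfm4, Smoc2, Sox9, Znrf3, Slc12a2 and Tnfrsf19, on the assumption that 1 library varies like the others, and 17.4% of all genes were called in that fit too. Without VSG replicate 1, whose Fabp6 was at an ileal level, 9 of 10 were positive with a median of 1.04 and 0 called.

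In the jejunum VSG replicates 1 to 4 had 497, 426, 1661 and 630.3 normalized counts of Lgr5. It was listed at 0 in sham replicate 1 and had 2053 in sham replicate 2. The sham libraries were thus the lowest and the highest of the 6. The VSG mean (804 ± 578, SD, n = 4) was below the sham mean (1027 ± 1452, SD, n = 2), while the log2 fold change was 3.92, with an interval from -1.27 to 9.11. It was -1.58 without sham replicate 1, so its direction depends on 1 library. Its exact two-sided permutation p was 0.400.

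The other fate factors were likewise low in sham replicate 1 and, in sham replicate 2, among the VSG libraries or just beside them. Ascl2 had 711, 186, 634 and 482 after VSG and 73.7 and 498 after sham surgery (log2 fold change 1.22, -1.05 to 3.49). Sox9 had 2006, 2759, 2644 and 2747 after VSG and 527 and 2326 after sham surgery, with a log2 fold change of 1.18 (-0.04 to 2.40), and of 0.11 without sham replicate 1. Tnfrsf19 had 129, 274, 179 and 463 after VSG, was listed at 0 in sham replicate 1 and had 111 in sham replicate 2. It was the only marker with every jejunal VSG library above both sham libraries, which held for 6.59% of all genes, and no marker had all of them below (6.21% of all genes). Its exact two-sided permutation p was 0.0667, the smallest possible. The log2 fold change of Tnfrsf19 was 4.47 (-0.14 to 9.08), which depends on the pseudocount through the 0, and 1.06 without sham replicate 1.

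Among the jejunal antagonists, Znrf3 had 895, 215, 458 and 411 after VSG, was listed at 0 in sham replicate 1 and had 583 in sham replicate 2. Axin2 had 4030, 2749, 2262 and 4372 after VSG and 1515 and 3393 after sham surgery, with a log2 fold change of 0.51 (-0.46 to 1.49), and of -0.07 without sham replicate 1. Rnf43 was the exception to the low sham library. Its values were 2184, 1175, 1170.0 and 3922 after VSG and 2453 and 3411 after sham surgery, so that both sham libraries lay above 3 of the 4 VSG libraries. The log2 fold change of Rnf43 was -0.64 (-1.81 to 0.53), and it was negative with each library left out in turn.

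The abundant markers repeated the pattern in the jejunum. Olfm4 had 18164 to 33820 normalized counts after VSG, 7345 in sham replicate 1 and 30320.4 in sham replicate 2 (log2 fold change 0.86, -0.32 to 2.04). Smoc2 had 2854 to 4939, and 1087 and 4572 (0.87, -0.31 to 2.05). Slc12a2 had 12930 to 15561, and 3315 and 14398 (1.07, -0.05 to 2.18), and its log2 fold change was 0.01 without sham replicate 1. For each of these genes sham replicate 2 lay within the range of the VSG libraries.

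In the ileum 9 of the 10 markers were tested, and 7 of the 9 were higher after VSG, against 57% of all genes, with a median of 1.65 on the log2 scale against 0.24 over all genes. The limma test called 0 of the 9, and 0% of 13853 genes. Both VSG libraries exceeded both sham libraries for 5 markers (Lgr5, Olfm4, Ascl2, Slc12a2 and Rnf43) and lay below both for 1 (Axin2), against 17% and 11.6% of all genes. Ascl2, listed at 0 in both sham libraries, passed the filter on low values through the VSG libraries alone. Its place among the 5, and among the 7 higher after VSG, was therefore fixed by the filter. With 2 libraries against 2 the smallest exact permutation p is 0.333. VSG replicate 4 was the highest ileal library for 5 of the 9 markers, against 23.2% of all genes with a mean above 50. It was also the highest for 8 of 8 Paneth cell, 6 of 7 goblet cell and 8 of 12 proliferation genes. For 8 of 10 enterocyte genes it was the lowest, against 13.7% of all such genes. The part of these in the marker differences was not tested. Without it the number of markers higher was 6 of 9, and without sham replicate 1 it was 8 of 9. The median was 1.00 to 2.38 with 1 library left out, lowest without sham replicate 2 and highest without VSG replicate 5.

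With all libraries and the settings above, Olfm4 was the only marker with an unadjusted limma p under 0.05 in any segment. Under other settings or with 1 library left out, Lgr5, Rnf43, Sox9, Slc12a2, Axin2 and others passed that level in at least 1 segment. In the ileum 3.28% of all genes passed that level, 2.09% higher and 1.19% lower after VSG. It had 7641 and 5352 normalized counts in VSG replicates 4 and 5, and 795 and 2647 in the sham replicates. The means were 6496 ± 1618 (SD, n = 2) and 1721 ± 1309 (SD, n = 2), with a log2 fold change of 2.14 (95% confidence interval 0.41 to 3.87, unadjusted p = 0.0236 and adjusted p = 0.736 from limma). The log2 fold change of Olfm4 was 1.27 without sham replicate 1 and 1.88 without VSG replicate 4, and its limma p was above 0.05 in both cases.

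Lgr5 had 672 and 420.4 in the ileal VSG libraries, was listed at 0 in sham replicate 1 and had 152 in sham replicate 2, and Ascl2 had 79.2 and 225 after VSG and was listed at 0 in both sham libraries. Ascl2 was called by limma without trend, as were 3.34% of all genes, and without VSG replicate 4, as were 4.98%; it passes the filter on low values through the VSG libraries alone. For Ascl2 no fold is given, and it enters the median of the list only by its rank, above the middle gene. The ileal sham libraries were also the 2 with the fewest reads. Slc12a2 had 7667 and 3545 after VSG, and 168 and 2491 after sham surgery (log2 fold change 3.01, -0.27 to 6.28), and the fold change was 1.07 without sham replicate 1 and 4.95 without sham replicate 2. Rnf43 had 767 and 2058 after VSG and 651 and 245 after sham surgery (1.65, -0.74 to 4.04). Axin2 went the other way, with 1377 and 1409 after VSG and 3477 and 2816 after sham surgery. Its log2 fold change of -1.17 (-2.41 to 0.07, limma adjusted p = 0.736) stayed between -1.32 and -1.02 under all 12 alternatives.

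The other ileal markers overlapped between groups. Smoc2 had 1412 and 534 after VSG and 675 and 849 after sham surgery, and Sox9 had 791 and 191, against 193 and 178. Znrf3 was listed at 0 in 1 library of each group and had 129 and 621 in the others. Tnfrsf19, with a mean under 10, was not tested, and had 26.0 in VSG replicate 4 and was listed at 0 in the other 3 libraries.

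Whether the surgery difference itself varied between segments was tested by limma on the jejunal minus duodenal log2 value of each mouse, VSG against sham. No marker had an adjusted p under 0.2 by limma, and none of 14718 genes had one (0% called). At an unadjusted p under 0.05 there were 0 of 10 markers, against 4.1% of all genes. The difference was positive for 9 of 10 markers, against 54.6% of all genes, and for 3 of 10 without sham replicate 1. Rnf43 was the marker with a negative value, at -1.39 (95% confidence interval -3.41 to 0.63). The largest positive value was that of Znrf3, at 4.41 (-0.36 to 9.18), and it was 0.07 without sham replicate 1. Without sham replicate 2, Lgr5, Slc12a2, Znrf3 and Tnfrsf19 had an adjusted p under 0.2 by limma, as had 5.62% of all genes.

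The markers were then set against each other over the 6 libraries of a segment, as 45 pairs, by Pearson's r of the log2 values with exact permutation p over all orders of the libraries. The 6 libraries share their normalization, and 0.00278 is the smallest p that 6 libraries allow. In the duodenum the median r was 0.594, 44 of 45 pairs were above 0 and 10 of 45 (22.2%) were above 0.8, while over all pairs of 13379 genes the median was -0.003 and 3.71% were above 0.8. The exact permutation p was under 0.05 for 8 pairs, and 0 pairs had a Benjamini-Hochberg adjusted p under 0.05 (smallest 0.241). The median Spearman's rho was 0.486. Without VSG replicate 1, the library highest for all markers, the median r was 0.150, so most of the pooled relation rested on it.

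The duodenal pairs with the highest r were Olfm4 with Tnfrsf19 (Pearson's r = 0.936, exact permutation p = 0.0111, adjusted 0.241; Spearman's rho = 1, p = 0.00278, adjusted 0.125) and Olfm4 with Slc12a2 (r = 0.913, exact permutation p = 0.0181). Without the 2 libraries farthest from the median of Olfm4, r was 0.853 for the first pair and 0.347 for the second. Lgr5 followed Sox9 (r = 0.882, exact permutation p = 0.0194, and 0.747 without the 2 farthest libraries) and Rnf43 (r = 0.835, exact permutation p = 0.0361, and 0.769). With Olfm4, Lgr5 had an r of 0.347, and per 1000 normalized counts of Olfm4 the duodenal libraries held 13.6 to 82.3 of Lgr5. The sham libraries were at 20.6 and 16.3, and VSG replicates 1 to 4 at 82.3, 45.3, 57.7 and 13.6. In the jejunum the sham libraries were the lowest and the highest (0 and 67.7), with 27.4, 14.5, 56.1 and 18.6 after VSG. The ileal sham libraries were at 0 and 57.4, and the VSG libraries at 88.0 and 78.5. Rnf43 had the lowest median r with the other markers (0.271), and Tnfrsf19 the highest (0.699).

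In the jejunum the median r was 0.887 and 28 of 45 pairs (62.2%) were above 0.8, while over all pairs of 12738 genes the median was 0.003 and 5.41% were above 0.8. The exact permutation p was under 0.05 for 14 pairs, and for 0 after adjustment (smallest 0.125). Since sham replicate 1 stands far from the other 5 libraries, this pooled r describes 1 library against the rest. Without it the median r was 0.186, without VSG replicate 1 it was 0.910, and the median Spearman's rho over all 6 libraries was 0.429. Znrf3 with Slc12a2 had the highest r (0.994, exact permutation p = 0.00972, rho = 0.829 with p = 0.0583), which was 0.829 at its lowest with 1 library left out. Sox9 with Tnfrsf19 came next (r = 0.988, exact permutation p = 0.00833, rho = 0.886 with p = 0.0333) and had a lowest value of 0.761. Lgr5 with Slc12a2 reached r = 0.969 (exact permutation p = 0.0875) but 0.022 with 1 library left out. Rnf43, which was not lowest in sham replicate 1, had a median r of -0.05 with the other 9 markers, whose own medians were 0.751 to 0.963. With 1 library left out its r reached 0.843 with Axin2, but at most 0.139 with Lgr5 and -0.01 with Sox9.

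**Figure D4:**
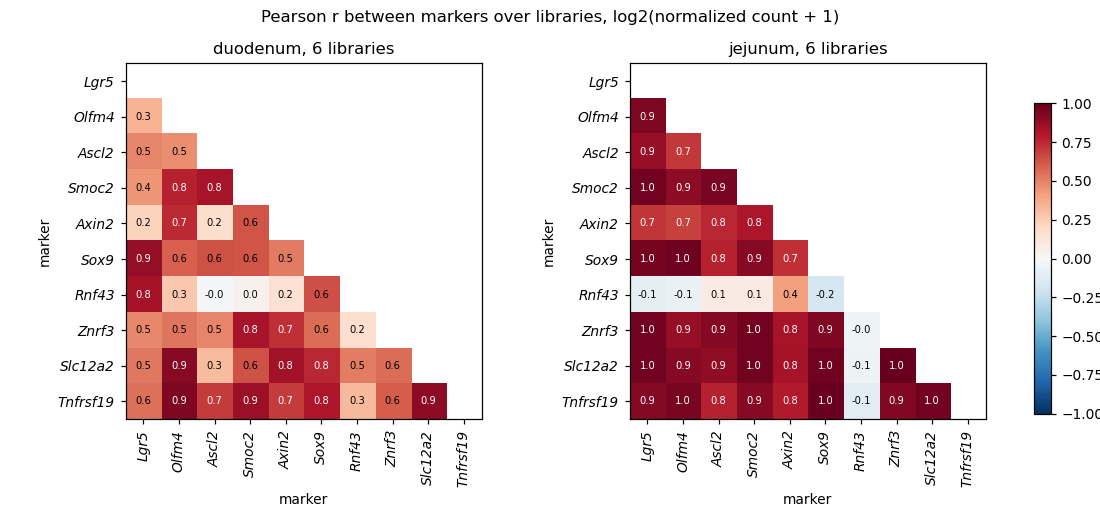
Pearson's r of each pair of markers over the 6 duodenal (left) and 6 jejunal (right) libraries, on log2(normalized count + 1), from blue (-1) to red (1). The jejunal panel is red (median r 0.887) except for the row and column of Rnf43 (median -0.05).

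Across the 6 mice with both segments, a marker's duodenal value was compared with its jejunal value, in 10 tests. Ascl2 was the marker with the highest r, 0.916 (exact permutation p = 0.00694, adjusted 0.0694 over the 10 markers; rho = 0.829, p = 0.0583, adjusted 0.583), and 0.893 without the 2 mice farthest from the median. For the other 9 the exact permutation p was above 0.05, with r from -0.668 for Rnf43 to 0.482 for Sox9. Lgr5 had an r of 0.190 and a rho of -0.486, and the exact permutation p of that r was 0.797.

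The genes most like Lgr5 over both segments, by the lower of the r over 6 duodenal and the r over 6 jejunal libraries among 12336 genes, were Fignl1, a gene of DNA repair (0.961 and 0.969), Ddx39b, an RNA helicase gene (0.957 and 0.979), and Gm10131 (0.953 and 0.949). Of the other markers Sox9 came closest, at rank 36, and Rnf43 was farthest, at rank 4500. Fignl1, like Lgr5, was listed at 0 in jejunal sham replicate 1. The mean z-score of the 10 markers was followed most closely by Spef1, Hspbap1 and Kdm2b, with lower values of 0.983, 0.974 and 0.961 among 12327 genes, and these 3 genes had 0, 0 and 9.50 normalized counts in jejunal sham replicate 1. All 3 were highest in duodenal VSG replicate 1, as the markers were. They are the top of a long list ranked over few libraries.

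Of 17 other genes of crypt base stem cells, the number higher after VSG was 12 for the duodenum, 15 for the jejunum and 14 of 16 tested for the ileum, and 0 were called. Their unadjusted p was under 0.05 for 2 duodenal genes, Prom1 (log2 fold change 1.20, standard error 0.26, limma adjusted p = 0.373) and Msi1 (1.33, standard error 0.32, limma adjusted p = 0.450). In the jejunum 3 genes passed that level: Prom1, Ephb3 and Phlda1, with log2 fold changes of 1.60, 2.99 and 2.03. In the ileum Ephb2 was higher (6.31, standard error 2.11) and Phlda1 lower (-2.40, standard error 0.94) at that level, with a limma adjusted p of 0.736 for both. Of the 17 genes, 7 and 6 were listed at 0 in ileal sham replicates 1 and 2, 6 in VSG replicate 5 and 2 in VSG replicate 4. Fold changes of genes with such zeros depend on the pseudocount. Sham replicate 1 was the lowest jejunal library for 10 of these 17 genes, and without it 7 of 17 were higher. Without VSG replicate 1 the duodenal number was 8 of 17.

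Of 18 genes of the Wnt pathway beyond the markers (Frizzled and Lrp receptors, transducers and targets), 8 were higher after VSG and 10 lower in the duodenum, with a median log2 fold change of -0.01. In the jejunum 8 of 16 tested were higher with a median of -0.00, and 7 of 17 in the ileum with a median of -0.39. At an unadjusted p under 0.05 there were 0 duodenal genes and 3 jejunal ones, Ccnd1, Cd44 and Nkd1, all higher (log2 fold changes 2.40, 1.96 and 5.34, limma adjusted p = 0.760 each). Cyclin D1, the product of Ccnd1, drives entry into the cell cycle. Nkd1 is an inhibitor of the pathway and its target. Of 12 proliferation genes, the duodenum had 6 higher, the jejunum 10 and the ileum 8, with an unadjusted p under 0.05 for 0, 1 (Tyms) and 2 (Ccnb1 and Tyms). In the ileum 4 and 3 of the 12 were listed at 0 in sham replicates 1 and 2, and 2 in VSG replicate 5. Ileal Ccnb1 (mean 203, log2 fold change 8.67) was at 0 in both sham libraries. It passed the filter on low values through the VSG libraries alone, so its direction was fixed. Of 8 genes of reserve and regenerative stem cells, the duodenum had 4 of 7 tested higher, the jejunum 3 of 7 and the ileum 2 of 6, with 0 at that level. Without sham replicate 1, 2 of the 12 jejunal proliferation genes were higher, and 0 of the 16 Wnt pathway genes passed the unadjusted level.

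Markers of other epithelial cells were measured in the same libraries, and 0 of them were called in any segment. The 10 enterocyte genes were all lower after VSG in the duodenum (median log2 fold change -0.84) and in the jejunum (-1.18), with an unadjusted limma p under 0.05 for 5 and 2, and 5 of 10 were lower in the ileum. In the duodenum their summed level was 374949 to 761941 normalized counts after VSG and 844031 and 1227560 after sham surgery, without overlap, while the summed level of the 10 stem cell markers was 84875 to 170438 after VSG and 107243 and 113376 after sham surgery. The 7 tuft cell genes were all higher in the duodenum (median 1.88) and in the jejunum (2.78), with an unadjusted limma p under 0.05 for 6 and 4, including Trpm5, an ion channel gene of these cells (duodenal log2 fold change 1.88, standard error 0.35, limma adjusted p = 0.292). Of the 8 Paneth cell genes 7, 8 and 8 were higher in the duodenum, jejunum and ileum, of 7 goblet cell genes 7, 7 and 6, and of 8 enteroendocrine genes 7, 3 and 7. These counts rest in part on single libraries of either group. Without jejunal sham replicate 1, 2 of 8 Paneth cell genes, 7 of 7 goblet cell genes and 5 of 7 tuft cell genes (median 0.08) were higher, and 2 of 10 enterocyte genes. Without duodenal sham replicate 2, 3 of 8 Paneth cell genes and 6 of 7 goblet cell genes were higher, and the tuft cell median was 1.19. Duodenal VSG replicate 4 was the highest library for 7 of 8 Paneth cell and 7 of 7 goblet cell genes, against 12.9% of all genes. Without it, 3 of 8 Paneth cell genes (median -0.03) and 6 of 7 goblet cell genes were higher. Without duodenal VSG replicate 1 10 of 10 enterocyte genes remained lower (median -0.64). Of the 8 enteroendocrine genes, 4 were higher in the duodenum without VSG replicate 3 (median 0.05). In the jejunum 6 of them were higher without VSG replicate 1 (median 0.39), and 1 without sham replicate 1 (median -0.42). Immune genes were higher in 4 of 4, 4 of 4 and 3 of 3 tested. Ileal Ptprc, at 185 in VSG replicate 5, was listed at 0 in every other ileal library, so passing the filter fixed its direction. The summed level of the immune genes was 549 to 3155 normalized counts after VSG and 181 and 410.3 after sham surgery in the duodenum, 821 to 1410 and 677 and 803 in the jejunum, and 272 and 586 and 3.49 and 123 in the ileum, without overlap in any. Of single genes, 6.44%, 6.59% and 17% of all genes had every VSG library above every sham library. Stromal and endothelial genes were higher in 1 of 7, 2 of 4 and 2 of 4. Their summed level was lower after VSG, also without overlap, in the duodenum (41.6 to 182, against 306 and 2595) and in the ileum (126 and 134, against 356 and 466). In the jejunum it overlapped (43.6 to 323 after VSG, 133 and 197 after sham surgery). The part of these cell types in the marker differences was not tested.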

How the data were processed

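Cells were sorted by GFP from Lgr5eGFP mice and sequenced as 16 libraries of 7 mice. STAR 2.5.3a (to mm10) and Salmon 0.6.0 were the aligner and quantifier of the authors, who left out libraries with low mapping. The authors deposited a signal per gene, a count that the authors normalized with DESeq2 separately for each segment. A minority of values (21.8% to 36.4% per library, within 0.01) are whole multiples of what 1 read was worth, so no count model was run. The most frequent low value above 0 in a library was taken as the worth of 1 read, and it gave the implied depth. The authors also deposited fold changes and p-values of their own comparison, which were not used. Columns of values that belong to no sample numbered 0.

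Limma 3.58.1 in R 4.3.3 with a variance trend was fitted per segment on log2(signal + 1), over genes with a mean above 10, with Benjamini-Hochberg adjustment over all of them. This scale understates the change between low values, but where a library is listed at 0 it can give a large fold change that depends on the pseudocount. Single genes had exact permutation tests. The named genes are the 10 markers, the 3 genes most like Lgr5 and the 3 most like the markers' mean, and of 11 other lists up to 3 genes with the lowest p under 0.05 per segment. Epcam and Fabp6 were added as checks of cell type and segment. The markers and lists were chosen with earlier results of these data known. Libraries of a group are separate mice, and each replicate number of VSG and sham names a different mouse. Alternatives were pseudocounts of 0.5 and 10, other filters and scalings, limma without trend, a stricter adjusted p, leaving out each library, and a replicate block. Steps were tested on simulated data. Positions came from GENCODE M21 (48058 of 48440 identifiers matched). Other steps used Python 3.11.15 (scipy 1.17.1, numpy 2.4.6, pandas 2.3.3) and figures matplotlib 3.10.9.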

Additional observations from a re-analysis of the deposited data

Results flagged for a closer look

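Among the 4 VSG libraries of the duodenum and of the jejunum, 3 marker values lay far from the other 3 libraries of their group by Dixon's gap test. The test was run for 10 markers in 2 groups, and chance alone flags about 1 in 20 groups. Znrf3 had 1448 normalized counts in duodenal VSG replicate 1, against 623 to 753 in the others, and this library was the highest for all 10 markers. Lgr5 had 1661 in jejunal VSG replicate 3, against 426 to 630.3 in the others, and the other markers were not set apart there. Sox9 had 2006 in jejunal VSG replicate 1, the lowest of that group, against 2644 to 2759 in the others, on the linear and on the log2 scale. That library is also the one with Fabp6 at an ileal level.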

How the results depend on the processing

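Under the alternatives run, 0 duodenal markers were called in any. In the jejunum 0 were called except without sham replicate 2 (range 0 to 7 with 1 library left out, and 17.4% of all genes where it was 7), and the number higher after VSG ranged from 3 (without sham replicate 1) to 9. In the ileum 1 marker, Ascl2, was called by limma without trend, and leaving out 1 library gave 0 to 1 (Ascl2, without VSG replicate 4). Ascl2 is listed at 0 in both ileal sham libraries. For the difference between jejunum and duodenum, leaving out 1 mouse gave 0 to 4 called (4 without sham replicate 2, where 5.62% of all genes were) and 3 to 9 higher. The median r over 45 pairs ranged from 0.150 to 0.683 in the duodenum and from 0.186 to 0.946 in the jejunum with 1 library left out, and was 0.429 in the jejunum as Spearman's rho. Of the uncalled markers, those that changed sign in at least 1 alternative were 4 of 10 duodenal, 6 of 10 jejunal and 2 of 9 ileal markers. Scaling each library to the same total moved the median of all genes from 0.11 to 0.34 in the jejunum and from 0.24 to 0.35 in the ileum, and the markers' median relative to it stayed at 1.01 or 1.02 and at 1.41. A replicate block in the duodenum gave 0 called and 10 of 10 higher with a median of 0.46. Its pairs of the same number are different mice, so the numbers are not a pairing. The deviations of these pairs had correlations of -0.07 and -0.04, which cannot decide whether they share a batch. The jejunal and ileal labels give no replicate numbers, and those used here were assigned by the code in each label. As assigned, the ileal groups share none. The cause of these changes was not tested beyond the library left out. The ileal sham libraries stand on an implied 21.5 and 10.9 M reads, and 2 libraries against 2 allow no exact permutation p below 0.333.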
